A study of Homo sapiens with 24 samples.

Results

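The kinesin superfamily, the motor proteins that move along microtubules or take them apart, was described by all 42 genes of the deposited table, of 58825 in all, whose symbol is KIF or KIFC followed by a number and at most 1 of the letters A to C. Kinesins with a main role in cell division made up 15 of them, kinesins of cargo transport another 15, and the remaining 12 have other roles, among them in cilia, Hedgehog signalling and microtubule growth, or roles that are less defined. Symbols that start with KIF but name partner proteins, pseudogenes or antisense RNAs, 9 in number, were not members.

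The RNA came from SK-HEP-1 cells, a long-established culture derived from a human liver cancer, that carried CRISPR interference (CRISPRi), in which a guide RNA brings an inactive Cas9 with a repressor to a promoter. PURPL, a noncoding transcript that p53 induces, was the target in 4 lines, named sg2, sg4, sg5 and sg6 after their guides. A guide without a target was used in 2 more lines (NTC1 and NTC2). Every line carried the CRISPRi system and was given either Nutlin-3a at 10 µM, which frees p53 from MDM2, or the DMSO vehicle, both for 6 h. Each combination had 2 harvests, numbered 1 and 3, so there were 8 libraries of PURPL guide lines and 4 of NTC lines for each treatment. The labels call the harvests biological replicates, and each guide is represented by 1 established line.

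The 24 libraries of polyadenylated RNA had totals of 66379359 to 92116705 estimated counts. PURPL averaged 1.84 ± 0.658 counts per 1000000 counts (CPM) in PURPL guide lines with Nutlin-3a (n = 8) and 32.7 ± 4.02 CPM in NTC lines with Nutlin-3a (SD, n = 4). With DMSO it averaged 0.556 ± 0.204 CPM in PURPL guide lines and 8.35 ± 1.25 CPM in NTC lines. The p53 targets CDKN1A and MDM2 rose with Nutlin-3a in both kinds of line, CDKN1A by 4.07 ± 0.16 on the log2 scale in PURPL guide lines and by 3.59 ± 0.22 in NTC lines (log2 fold change ± SE). The labels class the line as endothelial, but none of 8 endothelial markers passed 1 CPM in any library, and their summed level was 0.162 to 0.663 CPM. Of 3 mesenchymal markers 2 passed 1 CPM in any library, and the 3 summed to 3567 to 4878 CPM. Of 5 hepatocyte markers 2 passed 1 CPM in any library, and the 5 summed to 1.67 to 5.22 CPM. The identity of the line was not tested.

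The library of harvest 1 of line sg2 with Nutlin-3a stood apart from the other 23. Its levels rose by 1.56 on the log2 scale for every 10 points of GC content of a gene, against slopes from -0.218 to 0.35 in the others. Its median correlation with the libraries of the same treatment was 0.907, against 0.987 to 0.995. Counts of genes with a changed level are therefore given with all 24 libraries and without this divergent library, and so are the genes whose call it changes.

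Kinesins share a motor domain that uses ATP to step along a microtubule, most of them toward its plus end. The mitotic members build the spindle, align chromosomes on it and close the midbody when the cell divides, and their transcripts are known to peak in the late cell cycle. Transport members carry vesicles, organelles and RNA at all phases, many through light chains or adaptors. Activated p53 is known to lower many late cell-cycle genes, in part through the p21 protein and the repressor complex DREAM, which contacts a promoter element with the letters TTTGAA, the cell cycle genes homology region.

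Promoter windows of RefSeq (GRCh38.p14) were searched on both strands for that element. They run from 250 bases before to 50 bases after a start that RefSeq gives the gene. The search was made knowing that the mitotic members moved together in the results that follow. A window was found for 34 of the 42 members, among them all 15 mitotic and 11 transport ones. TTTGAA stood in a window of 10 of the 15 mitotic genes (66.7%), of 1 of the 11 transport genes (9.09%, KIF5B) and of 0 of the 8 other kinesins with a window. It stood in 15.2% of all 35116 windows, counted per window and not per gene. The variant TTTAAA was found in 4 of the 15 mitotic genes (26.7%), in 1 of 11 transport genes and in 12.2% of all windows.

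The windows below show where the element lies in 5 mitotic genes that were lower with Nutlin-3a in every line, in the 1 transport gene that has it, and in 1 transport gene that has neither variant. Capitals mark TTTGAA or TTTAAA on either strand (TTCAAA is TTTGAA read on the other strand).

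KIF11, chr10:92592880-92593179, plus strand: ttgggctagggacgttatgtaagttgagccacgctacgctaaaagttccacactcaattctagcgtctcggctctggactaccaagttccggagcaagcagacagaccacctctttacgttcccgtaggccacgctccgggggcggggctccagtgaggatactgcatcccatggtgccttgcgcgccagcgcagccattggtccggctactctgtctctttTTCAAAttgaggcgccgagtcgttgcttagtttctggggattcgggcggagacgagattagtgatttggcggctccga

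KIF18A, chr11:28108107-28108406, minus strand: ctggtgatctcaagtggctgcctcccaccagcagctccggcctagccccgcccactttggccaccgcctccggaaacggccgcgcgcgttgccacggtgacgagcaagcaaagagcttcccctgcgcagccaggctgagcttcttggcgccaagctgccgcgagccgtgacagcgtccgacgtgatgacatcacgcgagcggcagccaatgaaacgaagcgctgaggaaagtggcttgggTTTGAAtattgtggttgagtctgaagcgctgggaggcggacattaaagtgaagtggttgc

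KIF23, chr15:69414099-69414398, plus strand: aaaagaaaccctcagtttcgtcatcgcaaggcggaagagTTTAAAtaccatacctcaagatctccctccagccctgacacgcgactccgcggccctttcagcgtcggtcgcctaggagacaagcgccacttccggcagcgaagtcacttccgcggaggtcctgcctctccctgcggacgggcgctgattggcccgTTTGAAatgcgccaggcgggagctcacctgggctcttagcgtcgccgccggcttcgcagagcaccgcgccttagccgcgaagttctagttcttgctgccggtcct

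KIF2C, chr1:44739587-44739886, plus strand: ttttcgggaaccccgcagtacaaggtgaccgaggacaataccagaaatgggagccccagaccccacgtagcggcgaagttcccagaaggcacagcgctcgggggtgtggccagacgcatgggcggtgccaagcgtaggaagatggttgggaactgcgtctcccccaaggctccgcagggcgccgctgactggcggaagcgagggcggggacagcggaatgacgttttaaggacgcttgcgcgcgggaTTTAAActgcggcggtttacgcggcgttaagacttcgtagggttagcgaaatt

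KIF20A, chr5:138178862-138179161, plus strand: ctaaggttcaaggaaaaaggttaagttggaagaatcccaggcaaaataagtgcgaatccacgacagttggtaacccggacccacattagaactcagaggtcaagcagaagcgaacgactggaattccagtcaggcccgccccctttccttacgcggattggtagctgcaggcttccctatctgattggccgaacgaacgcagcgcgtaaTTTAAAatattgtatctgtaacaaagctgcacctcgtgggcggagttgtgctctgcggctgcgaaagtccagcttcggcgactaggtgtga

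KIF5B, chr10:32056376-32056675, minus strand: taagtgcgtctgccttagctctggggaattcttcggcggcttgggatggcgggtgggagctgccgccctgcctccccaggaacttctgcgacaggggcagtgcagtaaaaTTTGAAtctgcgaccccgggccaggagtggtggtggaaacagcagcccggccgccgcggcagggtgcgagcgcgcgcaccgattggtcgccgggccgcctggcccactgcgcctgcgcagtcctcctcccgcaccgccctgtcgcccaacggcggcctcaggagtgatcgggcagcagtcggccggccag

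KIF3A, chr5:132737497-132737796, minus strand: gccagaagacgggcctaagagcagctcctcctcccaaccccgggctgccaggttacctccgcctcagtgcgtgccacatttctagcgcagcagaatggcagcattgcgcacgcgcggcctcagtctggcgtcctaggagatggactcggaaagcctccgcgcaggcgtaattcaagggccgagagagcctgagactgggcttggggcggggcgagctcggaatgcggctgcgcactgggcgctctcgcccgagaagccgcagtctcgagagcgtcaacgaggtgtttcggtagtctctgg

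Positions count from the RefSeq start of each window, which for several genes differs from the gene coordinates given further below. By those coordinates the KIF11 window ends before the gene start (92593286), and the KIF20A window begins after it (138178719). In KIF23 the gene start of those coordinates (69414246) lies upstream of TTTGAA. Counted from the RefSeq start, TTTGAA began 28 bases before the start in KIF11, 10 before it in KIF18A and 55 before it in KIF23. The KIF23 window also held TTTAAA, 211 bases before the start. In KIF2C and KIF20A the window held only TTTAAA, which began 3 and 41 bases before the start. In KIF5B the element lay farther away, 140 bases before the start. KIF4A (-34) and KIF15 (-35) carried TTTGAA upstream, while in KIF14, KIF18B, KIFC1, KIF4B and KIF20B it lay after the start, at positions 2, 3, 5, 4 and 25. In KIF20B a second copy began at 31. Windows of 3 mitotic genes, KIF2A, KIF2B and KIF22, had neither variant. The box CCAAT stood in 11 of 15 mitotic genes (73.3%), 4 of 11 transport genes (36.4%) and 34.6% of all windows, and GGCGGG in 86.7%, 90.9% and 45.0% of them. KIF2A, KIF22, the transport members KIF3C and KIF5C, and the other kinesins KIF24 and KIF26A had neither variant. Each of them was called lower with Nutlin-3a in at least 1 fit given below. These matches are descriptions of letters, not of binding, and whether the element bears on any response was not tested.

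Levels per length, as transcripts per 1000000 transcripts (TPM) over the merged exons of a gene, placed most mitotic members above most transport members in untreated cells. In the 4 NTC libraries with DMSO, KIF5B, the ubiquitous heavy chain of conventional kinesin, was highest at 486 ± 91.9 TPM (SD, n = 4). KIF11, the motor that slides spindle poles apart, followed at 391.9 ± 78.0 TPM. Their ranges overlapped, but KIF5B was above KIF11 in each of the 4 libraries. KIF20A, which carries the chromosomal passenger complex to the central spindle, stood at 242 ± 10.6 TPM. KIF2C, a microtubule depolymerase of centromeres, and KIF4A, a chromokinesin, had 214 ± 13.7 and 209.6 ± 13.3 TPM, within each other's spread. KIF23, KIF20B, KIF18A, KIF14 and KIF2A came next, between 184 ± 20.6 and 107 ± 21.8 TPM, and the ranges of neighbours in this order overlapped. KIF23 was nevertheless above KIF20B in each library.

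The transport order below KIF5B began with KIF3B, a subunit of the heterotrimeric kinesin of cilia and vesicles, at 88.4 ± 10.0 TPM. KIF1C, a vesicle motor, had 61.2 ± 7.65 TPM and KIF13A, an endosome motor, 44.4 ± 5.62 TPM. KIF3A (25.0 ± 4.29), KIF1B (24.7 ± 5.46) and KIF3C (17.5 ± 1.25 TPM) were lower. The motors best known from neurons were near the bottom, with KIF5C at 6.31 ± 0.977, KIF5A at 1.34 ± 0.095, KIF17 at 0.412 ± 0.0779 and KIF1A at 0.031 ± 0.0034 TPM. Among the other kinesins KIF21A, which slows microtubule growth, was highest at 25.9 ± 4.78 TPM, followed by KIF24 at 6.76 ± 0.896 TPM.

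KIF2B and KIF19 had 0 counts in every library, which allows at most 0.0326 to 0.0452 CPM by library (3 counts, counting error only). KIF6, KIF12 and KIF25 had at most 6, 21 and 3 counts. KIF4B, a retrogene of KIF4A, had 1 to 10 counts, and its reads can be split with KIF4A, whose estimated counts were not whole in 21 libraries. These 6 did not pass the filter on low counts with all libraries, which left 36 tested members, 13 mitotic, 15 transport and 8 other.

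**Figure D1:**
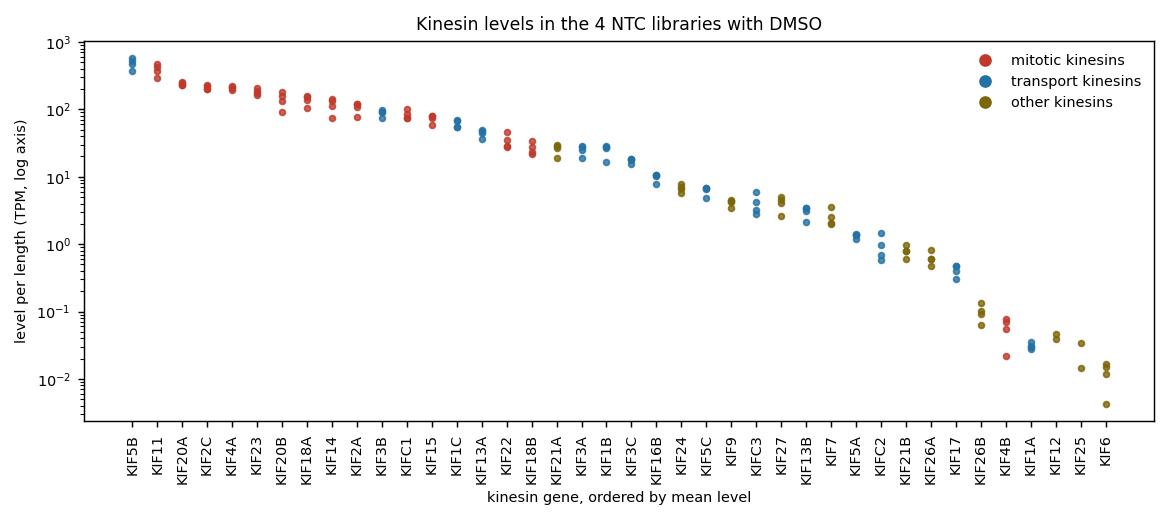
Level per length (TPM, log axis) of each kinesin in the 4 NTC libraries with DMSO, 1 point per library, ordered by mean and coloured by class; KIF2B and KIF19, at 0 counts, are not drawn and single libraries at 0 have no point. Mitotic kinesins fill most of the upper places after KIF5B (486 TPM), while KIF1A, KIF17 and KIF5A lie at 1.34 TPM or below.

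Summed over the 15 mitotic members, the level was 1265 ± 56.3 TPM in PURPL guide lines with Nutlin-3a without the divergent library (n = 7), against 2089.5 ± 31.3 TPM with DMSO (n = 8). With the divergent library, at 981 TPM, the Nutlin-3a mean was 1229.5 ± 113 TPM (n = 8). In NTC lines the sums were 1355 ± 54.6 TPM with Nutlin-3a and 1962 ± 199 TPM with DMSO (n = 4 each). The highest sum with Nutlin-3a (1415 TPM) lay below the lowest with DMSO (1699.7 TPM). Over the 15 transport members the sums were 744 ± 34.5 TPM with Nutlin-3a (n = 7) and 825 ± 30.3 TPM with DMSO in PURPL guide lines. They were 757 ± 13.9 TPM with Nutlin-3a and 773 ± 106 TPM with DMSO in NTC lines. With the divergent library, at 549.6 TPM, the transport mean in PURPL guide lines with Nutlin-3a was 719 ± 75.6 TPM (n = 8). KIF5B alone, at 486 TPM in NTC lines with DMSO, made up most of the transport sum there. In bulk RNA, fewer cells that express a gene and less of its RNA per cell cannot be told apart.

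The question of the treatment contrast is how p53 activation changes the transcriptome with PURPL repressed and with PURPL intact. Mitotic kinesins fell with Nutlin-3a in both kinds of line, and transport kinesins mostly did not pass the test. In PURPL guide lines 10 of 13 tested mitotic members fell at an adjusted p under 0.05 and 0 rose, beside 16.5% of all 16371 tested genes that fell and 17.7% that rose (edgeR's quasi-likelihood test, Benjamini-Hochberg adjustment over all genes). Their median log2 fold change was -0.69, against 0.05 over all genes tested. In NTC lines 7 of 13 fell and 0 rose, beside 4.03% and 4.18% of all genes, with a median of -0.55 against -0.02. All 7 were among the 10.

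With the divergent library left out, 13 of 14 tested mitotic members fell and 0 rose in PURPL guide lines (background 22.7% fell, 15.9% rose), and the same 13 of 14 fell in NTC lines (15.9% fell, 8.88% rose). The member left over was KIF4B, with its 1 to 10 counts. In PURPL guide lines the libraries of both treatments did not overlap for 11 of the 15 mitotic members and 0 of the 15 transport ones, without the divergent library (background 12.2% of genes below, 6.71% above). In NTC lines they did not overlap for 10 mitotic members, all lower with Nutlin-3a (background 12.6% below, 11.1% above), and for 1 transport member, which was higher.

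Of the 15 transport members, with all libraries, 2 fell and 0 rose in PURPL guide lines (median 0.03) and 0 passed in NTC lines (median 0.04). When the divergent library was left out, 2 fell and 0 rose in PURPL guide lines (median -0.05), and in NTC lines KIF3A rose and KIF3C fell (median 0.01). These shares lie near or below the background shares given above. Of the 8 other kinesins, with all libraries, 1 rose and 1 fell in PURPL guide lines and 0 passed in NTC lines. When the divergent library was left out, KIF21B, KIF24 and KIF26A fell in both kinds of line, KIF21A rose in both, and KIF26B rose in PURPL guide lines.

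The share of counts from mitochondrial genes moved with the treatment, at 1.11 to 1.33% with Nutlin-3a and 0.855 to 1.08% with DMSO in PURPL guide lines, and at 1.10 to 1.47% with Nutlin-3a and 0.81 to 0.927% with DMSO in NTC lines. The summed level of 6 genes read as signs of RNA quality, all above 1 CPM, was 5421 to 6499 CPM with Nutlin-3a and 4151 to 5185 CPM with DMSO in PURPL guide lines. In NTC lines it was 5560 to 7372 CPM with Nutlin-3a and 3888 to 4229 CPM with DMSO. Their part in the kinesin results was not tested.

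**Figure D2:**
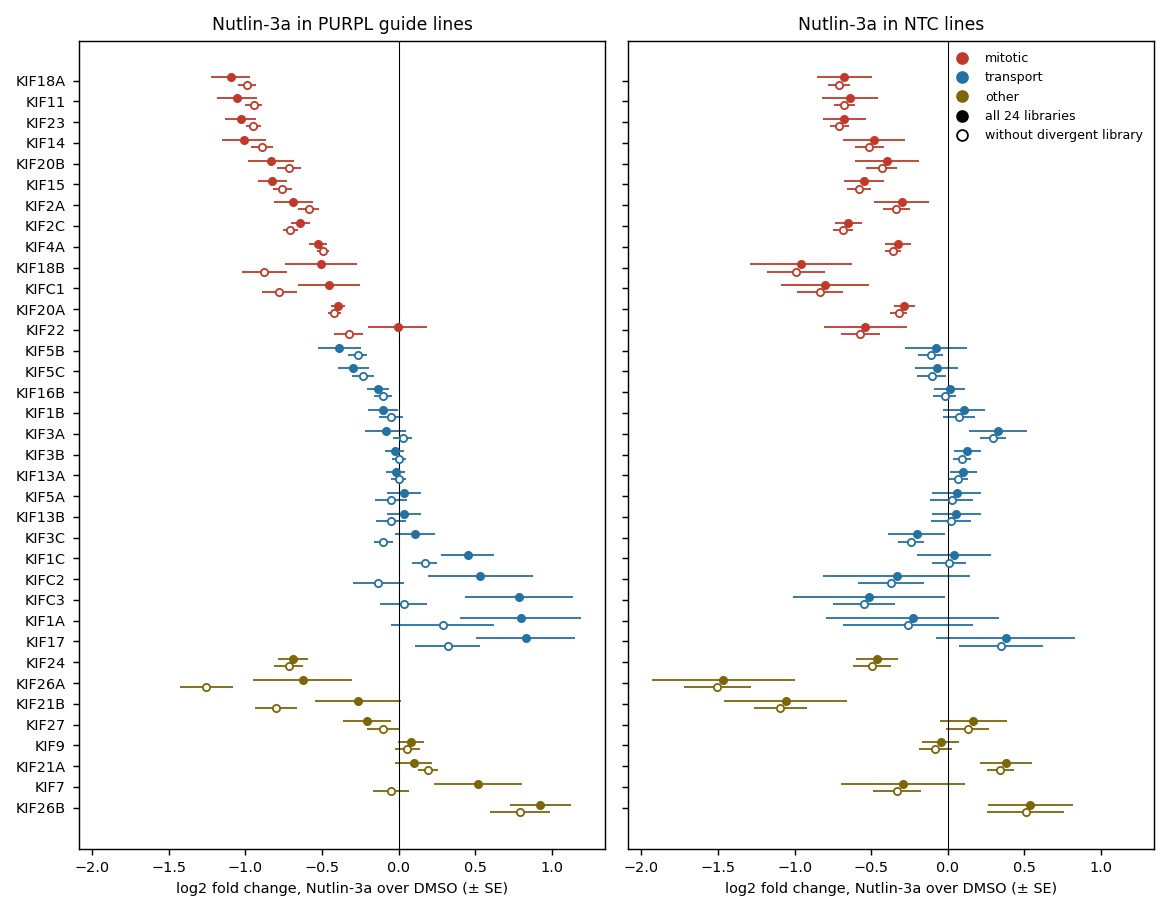
Log2 fold change, Nutlin-3a over DMSO, ± SE of each of the 36 tested kinesins in PURPL guide lines (left) and NTC lines (right), from edgeR; filled points use all 24 libraries and open points leave out the divergent library. The mitotic members lie left of 0 in both panels, KIF22 in PURPL guide lines at -0.01 with all libraries, while transport members scatter around 0.

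KIF11, the main spindle motor (ENSG00000138160.6, chr10:92593286-92655395, hg38), had 217 to 276 CPM with Nutlin-3a in the 7 PURPL guide libraries without the divergent one, with a median of 240.0, and 435 to 527 CPM with DMSO, with a median of 462. The divergent library had 106 CPM. In NTC lines it had 278, 269, 281 and 263 CPM with Nutlin-3a, against 393, 329, 474 and 525 CPM with DMSO. All Nutlin-3a libraries lay below all DMSO libraries in both kinds of line. The log2 fold change was -1.06 ± 0.13 in PURPL guide lines (edgeR adjusted p = 2.56e-05) and -0.64 ± 0.18 in NTC lines (adjusted p = 0.0446). Without the divergent library it was -0.95 ± 0.05 in PURPL guide lines and -0.67 ± 0.07 in NTC lines.

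KIF15, which can take over from KIF11 at the spindle, had 49.4 to 60.4 CPM with Nutlin-3a (7 libraries, median 56.6) and 88.5 to 101 CPM with DMSO (median 94.0) in PURPL guide lines. Values in NTC lines were 62.1, 53.6, 64.7 and 57.1 CPM with Nutlin-3a and 88.0, 70.9, 94.5 and 94.7 CPM with DMSO, again without overlap. It fell by 0.82 in PURPL guide lines and by 0.55 in NTC lines on the log2 scale (edgeR adjusted p = 9.29e-06 and 0.0159). KIFC1, a minus-end motor that focuses spindle poles, had 27.3 to 50.1 CPM with Nutlin-3a (median 34.4), 52.4 to 67.8 CPM with DMSO (median 63.5), and 122 CPM in the divergent library. That library was the highest of all 24 for KIFC1, where it was the lowest for KIF11.

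With all libraries KIFC1 did not pass, at -0.46 ± 0.20 in PURPL guide lines (edgeR adjusted p = 0.09) and -0.80 ± 0.29 in NTC lines (adjusted p = 0.116). Without the divergent library it fell by 0.78 in PURPL guide lines (adjusted p = 3.45e-05) and by 0.83 in NTC lines (adjusted p = 0.000539). In NTC lines the libraries did not overlap, with 38.6, 34.5, 34.2 and 39.5 CPM with Nutlin-3a and 63.9, 78.9, 56.5 and 57.7 CPM with DMSO. KIFC1, KIF18B and KIF22 were singled out after their values were seen, because they are the 3 tested mitotic members with the highest GC content, 56.3 to 60.4%.

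KIF18B, which shortens astral microtubules, showed the same dependence on the divergent library. It had 9.96 to 20.9 CPM with Nutlin-3a in the other 7 PURPL guide libraries, 54.1 CPM in the divergent one and 19.3 to 29.2 CPM with DMSO. In the NTC libraries it had 16.9, 13.7, 12.3 and 14.9 CPM with Nutlin-3a, against 28.8, 36.8, 23.1 and 24.6 CPM with DMSO. Its log2 fold change with all libraries was -0.51 ± 0.23 in PURPL guide lines and -0.96 ± 0.33 in NTC lines (edgeR adjusted p = 0.101 and 0.102). Without the divergent library it was -0.88 ± 0.14 in PURPL guide lines and -0.99 ± 0.19 in NTC lines (adjusted p = 0.000124 and 0.000941). KIF22, a chromokinesin that pushes chromosome arms, was at -0.01 ± 0.19 in PURPL guide lines with all libraries and fell by 0.33 without the divergent library (adjusted p = 0.0125). In NTC lines it was at -0.54 ± 0.27 with all libraries and fell by 0.57 without the divergent one (adjusted p = 0.00298). An antisense-strand gene, AC009133.4, covers 13.0% of the exon bases of KIF22, so the counts of KIF22 are uncertain where strand was not used. The same holds for KIFC1 (RPL12P1, 12.7%), KIFC2 (FOXH1, 17.8%), KIF9 (KIF9-AS1, 14.9%) and KIF7 (TICRR, 11.8%). IPO11 shares 8.97% of the exon bases of KIF2A on the same strand, where the strand cannot separate them.

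Of the motors that act on microtubule ends, KIF2C and KIF18A fell in both kinds of line. KIF2C (ENSG00000142945.13, chr1:44739818-44767767) had 99.9 to 119 CPM with Nutlin-3a (7 libraries, median 112) and 161 to 180.4 CPM with DMSO (median 176) in PURPL guide lines. In NTC lines it had 118, 107, 108 and 116 CPM with Nutlin-3a and 179, 192, 166 and 169 CPM with DMSO. The divergent library, at 136 CPM, still lay below every DMSO library of KIF2C. Its log2 fold change was -0.64 ± 0.06 in PURPL guide lines and -0.65 ± 0.09 in NTC lines (edgeR adjusted p = 2.7e-06 and 0.000233).

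KIF18A, a plus-end motor that damps chromosome movement (ENSG00000121621.7, chr11:28020620-28108308), had 68.8 to 91.7 CPM with Nutlin-3a (median 81.7) and 149.6 to 179.6 CPM with DMSO (median 159.9) in PURPL guide lines. Values in NTC lines were 91.9, 86.3, 95.9 and 87.4 CPM with Nutlin-3a and 140.5, 114, 159 and 169 CPM with DMSO. Its log2 fold change was -1.09 ± 0.13 in PURPL guide lines (edgeR adjusted p = 1.39e-05) and -0.68 ± 0.18 in NTC lines (adjusted p = 0.0292). KIF2A, a depolymerase of spindle poles that dividing and resting cells use, fell by 0.69 in PURPL guide lines (adjusted p = 0.000854). In NTC lines KIF2A was at -0.30 ± 0.18 (adjusted p = 0.417), and its 89.3, 94.0, 97.1 and 91.7 CPM with Nutlin-3a overlapped the 116, 83.1, 132 and 133 CPM with DMSO. Leaving out the divergent library gave -0.59 ± 0.07 in PURPL guide lines and -0.33 ± 0.09 in NTC lines for KIF2A, which passed in both.

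Motors of the central spindle and of cytokinesis were lower as well. KIF23 (ENSG00000137807.15, chr15:69414246-69448427), the motor subunit of centralspindlin, had 129.6 to 166 CPM with Nutlin-3a (median 153) and 270.2 to 315 CPM with DMSO (median 293) in PURPL guide lines. In the NTC libraries it had 174, 164, 173 and 171 CPM with Nutlin-3a and 254, 245, 278 and 316 CPM with DMSO. It fell by 1.03 in PURPL guide lines and by 0.67 in NTC lines on the log2 scale (edgeR adjusted p = 2.37e-06 and 0.0069). The treatments did not overlap in either kind of line. The calls of KIF23, KIF15, KIF2C, KIF18A, KIF20A and KIF4A held without the divergent library, with log2 fold changes from -0.99 (KIF18A) to -0.42 (KIF20A) in PURPL guide lines and from -0.71 (KIF18A) to -0.32 (KIF20A) in NTC lines.

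KIF20A (ENSG00000112984.12, chr5:138178719-138187715) changed less but with little spread. It had 157 to 187 CPM with Nutlin-3a (median 174) and 217 to 243 CPM with DMSO (median 229) in PURPL guide lines, and 179.8, 174, 172 and 185 CPM with Nutlin-3a against 218, 211, 209 and 228 CPM with DMSO in NTC lines. With a GC content of 49.2% it was nearly equal in the divergent library (184 CPM) and in the other sg2 library with Nutlin-3a (174 CPM). It fell by 0.40 in PURPL guide lines and by 0.28 in NTC lines (edgeR adjusted p = 2.11e-05 and 0.0165). KIF4A, which stops microtubule growth in the midzone, fell by 0.53 in PURPL guide lines and by 0.32 in NTC lines (adjusted p = 1.16e-05 and 0.0282). Its libraries did not overlap, with 155 to 183 CPM with Nutlin-3a (without the divergent one, at 131 CPM) against 222 to 238 CPM with DMSO in PURPL guide lines, and 171, 168, 169 and 177 CPM against 214, 199, 214 and 231 CPM in NTC lines.

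KIF14 and KIF20B, which act in abscission, fell in PURPL guide lines, KIF14 by 1.01 and KIF20B by 0.83 on the log2 scale (edgeR adjusted p = 9.9e-05 and 0.00066). KIF14 had 99.3 to 130.4 CPM with Nutlin-3a (median 115) and 201 to 236 CPM with DMSO (median 214) there. KIF20B had 130.5 to 171 CPM with Nutlin-3a (median 145) and 211 to 283 CPM with DMSO (median 241). In NTC lines neither passed with all libraries, KIF14 at -0.48 ± 0.20 (adjusted p = 0.195) and KIF20B at -0.40 ± 0.21 (adjusted p = 0.337). There KIF14 had 137, 126, 144 and 128 CPM with Nutlin-3a and 181, 126, 216 and 239 CPM with DMSO. The low DMSO value of 126 CPM belongs to harvest 3 of line NTC1, which has the highest GC slope of the DMSO libraries (0.314). The part of that slope in the value was not tested. When the divergent library was left out, KIF14 was at -0.89 ± 0.07 and KIF20B at -0.71 ± 0.08 in PURPL guide lines. Both then fell in NTC lines as well, KIF14 by 0.51 (adjusted p = 0.00068) and KIF20B by 0.43 (adjusted p = 0.00431).

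**Figure D3:**
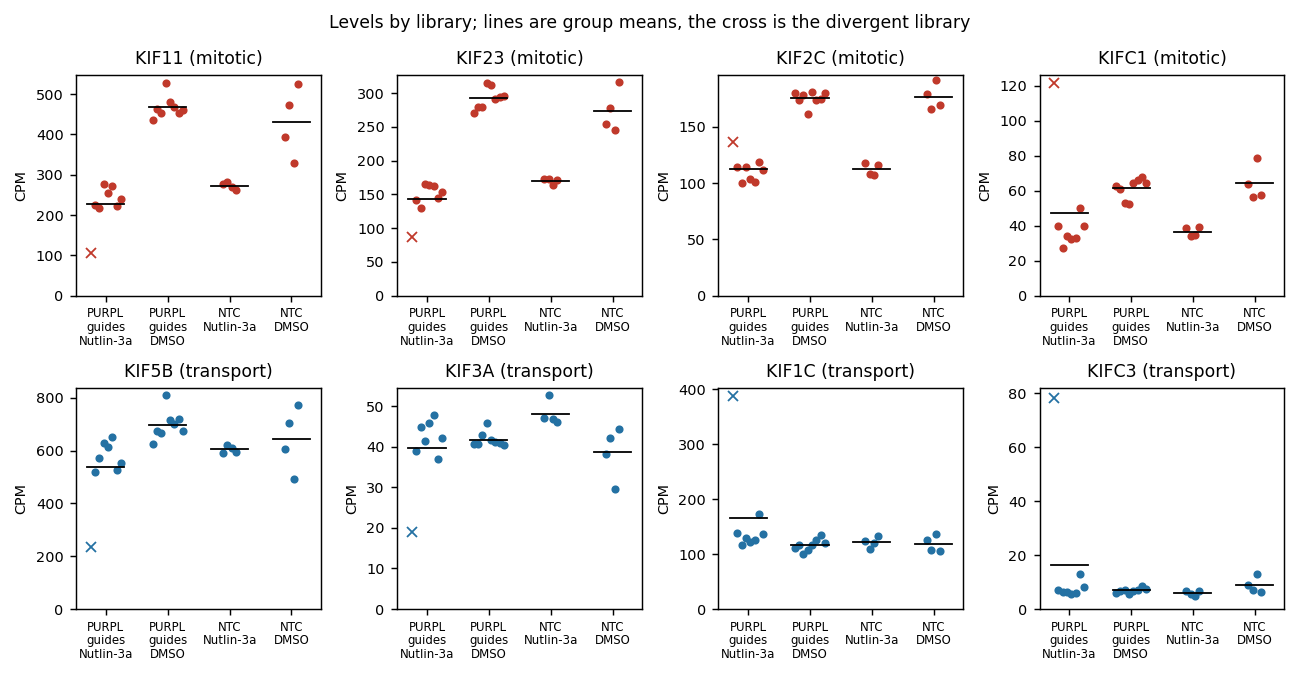
CPM of 4 mitotic and 4 transport kinesins in every library, with Nutlin-3a left of DMSO for PURPL guide lines (8 libraries each) and NTC lines (4 each); lines are group means and the cross is the divergent library. KIF11, KIF23 and KIF2C separate by treatment, KIFC1 does so apart from the cross (122 CPM), and the 4 transport genes overlap apart from KIF3A in NTC lines.

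Each of the 6 lines was also compared alone, its 2 harvests with Nutlin-3a against its 2 with DMSO. KIF11, KIF15, KIF18A, KIF20A, KIF23, KIF2C and KIF4A had both Nutlin-3a harvests below both DMSO harvests in 6 of 6 lines, as did 8.1% of all tested genes (1326 of 16371). With the divergent library left out, KIFC1 and KIF18B joined them, which made 9 of 14 mitotic members, against 0 of 15 transport and 3 of 8 other members (background 9.67%). The log2 ratio of mean CPM for KIF11 was -0.85 in sg2 (without the divergent library), -0.91 in sg4, -1.04 in sg5, -0.94 in sg6, -0.40 in NTC1 and -0.88 in NTC2. For KIF23 it was -0.83 in sg2, -0.91 in sg4, -1.07 in sg5, -0.93 in sg6, -0.56 in NTC1 and -0.79 in NTC2. NTC1 was the line with the smallest drop for both genes. NTC2 lay inside the range of the guide lines for KIF11 and above it for KIF23.

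NTC1 also had the smallest drop for KIF14, KIF15, KIF18A, KIF20A, KIF20B, KIF2A and KIF4A, but not for every mitotic member. For KIFC1 the ratio was -0.97 in NTC1, the lowest of the 6 lines beside sg2 (-0.97), for KIF22 it was -0.77 in NTC1 and between -0.51 and -0.21 elsewhere, and for KIF18B -1.10 in NTC1. These 3 are rich in GC, and KIF20B (-0.11 in NTC1), KIF2A (-0.12) and KIF14 (-0.22), at 34.1 to 42.0% GC, are poor in it. KIF2C, near the middle at 49.8% GC, had -0.72 in NTC1 and -0.58 in NTC2. The part of GC content in these differences between lines was not tested.

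**Figure D4:**
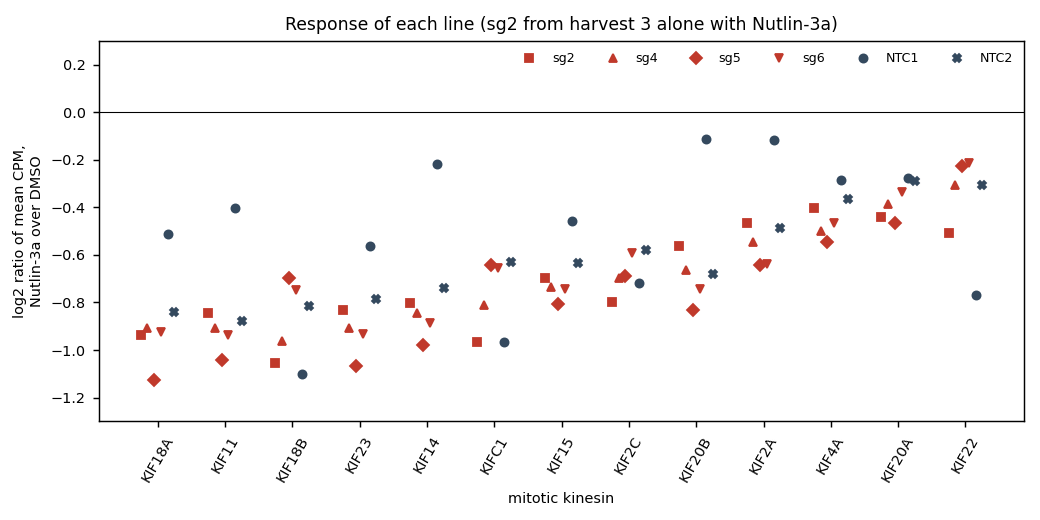
Log2 ratio of mean CPM, Nutlin-3a over DMSO, of 13 mitotic kinesins in each of the 6 lines, guide lines in red and NTC lines in dark blue; sg2 uses harvest 3 alone with Nutlin-3a. All points lie below 0, from -1.13 (KIF18A in sg5) to -0.11 (KIF20B in NTC1). NTC1 stands above the other lines for KIF11, KIF14, KIF15, KIF18A, KIF20A, KIF20B, KIF23, KIF2A and KIF4A, for KIF20A by little.

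Transport kinesins changed little. KIF5B, the heavy chain of conventional kinesin (ENSG00000170759.11, chr10:32009010-32056431), had 520.3 to 651 CPM with Nutlin-3a (7 libraries, median 573) and 624.8 to 809.6 CPM with DMSO (median 687) in PURPL guide lines. In NTC lines it had 591, 612, 620.2 and 596 CPM with Nutlin-3a, all 4 inside the range of the 608, 492.6, 704 and 775 CPM with DMSO. It fell by 0.39 in PURPL guide lines (edgeR adjusted p = 0.0481), against -0.08 ± 0.20 in NTC lines (adjusted p = 0.92). The call is near the threshold: it was lost with RLE size factors (adjusted p = 0.057), and without the divergent library, which had 236 CPM, the fall was 0.27 (adjusted p = 0.0023).

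KIF5C, its neuronal relative, fell by 0.30 in PURPL guide lines (edgeR adjusted p = 0.0344) and by 0.23 without the divergent library (adjusted p = 0.0153), at low levels. It had 9.84 to 13.0 CPM with Nutlin-3a (median 11.5) and 12.3 to 14.3 CPM with DMSO (median 13.2), so the groups overlapped. Values in NTC lines were 12.8, 13.0, 12.4 and 11.7 CPM with Nutlin-3a and 13.5, 10.3, 14.3 and 14.4 CPM with DMSO (log2 fold change -0.07 ± 0.14, adjusted p = 0.892). KIF5A, the other neuronal heavy chain, was at 0.03 ± 0.11 in PURPL guide lines and 0.06 ± 0.16 in NTC lines.

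KIF3A, a motor subunit needed to build cilia, moved only in some settings. In the NTC libraries it had 47.0, 46.8, 52.9 and 46.1 CPM with Nutlin-3a, all above the 38.2, 29.6, 42.3 and 44.5 CPM with DMSO, the only transport member without overlap. The test gave 0.33 ± 0.19 with all libraries (edgeR adjusted p = 0.394) and 0.29 ± 0.08 without the divergent one (adjusted p = 0.0158). In PURPL guide lines it was at -0.08 ± 0.13 with all libraries and 0.03 ± 0.06 without the divergent one. With the GC trend of each library removed it passed there as higher, at 0.14 ± 0.04 (edgeR adjusted p = 0.00465). It also did so with the divergent library left out as well, at 0.14 ± 0.04 (edgeR adjusted p = 0.00343). Of its partners in the motor, KIF3B was at -0.03 ± 0.06 in PURPL guide lines and 0.13 ± 0.09 in NTC lines. KIF3C, the other possible partner, was at 0.10 ± 0.13 in PURPL guide lines and -0.20 ± 0.18 in NTC lines with all libraries, and in NTC lines it fell by 0.24 without the divergent one (adjusted p = 0.0468).

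Several GC-rich transport kinesins had high fold changes in PURPL guide lines that rested on the divergent library. KIF1C had 117 to 172 CPM with Nutlin-3a in the other 7 libraries, 388 CPM in the divergent one and 101 to 134 CPM with DMSO. Its log2 fold change was 0.45 ± 0.17 with all libraries (edgeR adjusted p = 0.0544) and 0.17 ± 0.08 without that library (adjusted p = 0.115). KIFC3, a minus-end motor of cell junctions, had 78.3 CPM in the divergent library, 5.41 to 13.1 CPM in the other 7 with Nutlin-3a and 5.47 to 8.64 CPM with DMSO. It was at 0.78 ± 0.35 with all libraries (adjusted p = 0.0945) and 0.03 ± 0.15 without the divergent one.

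KIF17, a dendrite and cilium motor, was at 0.83 ± 0.32 in PURPL guide lines with all libraries and 0.32 ± 0.21 without the divergent one. KIF1A, an axonal vesicle motor, was at 0.80 ± 0.40 and 0.29 ± 0.34 in the same fits. KIF17 had at most 1.06 CPM and KIF1A at most 0.250 CPM outside the divergent library. DESeq2 called KIF1C, KIF17 and KIFC3 as higher with all libraries (adjusted p = 0.0244, 0.0366 and 0.0461). The neuronal markers summed to 143.4 CPM in the divergent library and to at most 19.4 CPM in the other 23. That sum was mostly TUBB3, at 139.6 CPM, while RBFOX3 and STMN2 stayed below 0.05 CPM in every library. The remaining transport members, KIF1B, KIF13A, KIF13B, KIF16B and KIFC2, lay between -0.37 and 0.53 in these fits and none passed the test.

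Among the other kinesins KIF24, a centriolar depolymerase that restrains cilium growth, was lower with Nutlin-3a in every line. It had 4.62 to 7.13 CPM with Nutlin-3a (median 6.29) and 8.86 to 11.2 CPM with DMSO (median 10.0) in PURPL guide lines, and its harvests were separate in 6 of 6 lines. In NTC lines it had 7.28, 6.30, 6.57 and 6.99 CPM with Nutlin-3a, below the 10.5, 7.94, 9.07 and 9.85 CPM with DMSO. The log2 fold change was -0.69 ± 0.10 in PURPL guide lines (edgeR adjusted p = 8.27e-05) and -0.46 ± 0.14 in NTC lines (adjusted p = 0.0514). Leaving out the divergent library gave -0.72 ± 0.09 in PURPL guide lines and -0.49 ± 0.12 in NTC lines (adjusted p = 1.11e-05 and 0.00686).

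KIF26B, an atypical kinesin of cell adhesion and polarity, was the 1 kinesin that rose with all libraries, by 0.93 ± 0.20 in PURPL guide lines (edgeR adjusted p = 0.00302), and by 0.79 ± 0.20 without the divergent library (adjusted p = 0.00437). Its levels there were low, 0.329 to 0.640 CPM with Nutlin-3a in 7 libraries and 0.731 CPM in the divergent one, against 0.190 to 0.325 CPM with DMSO. Its counts were 16 to 64 per library over all 24, the 64 in the divergent one. Values in NTC lines were 0.498, 0.393, 0.515 and 0.425 CPM with Nutlin-3a and 0.423, 0.205, 0.2999 and 0.334 CPM with DMSO, which overlap (0.54 ± 0.28, adjusted p = 0.322). Its relative KIF26A went the other way. KIF26A had 0.232 to 0.528 CPM with Nutlin-3a against 0.559 to 1.03 CPM with DMSO in PURPL guide lines, and 0.374, 0.298, 0.409 and 0.287 CPM with Nutlin-3a against 0.899, 1.29, 0.711 and 0.922 CPM with DMSO in NTC lines. Without the divergent library, which had 2.33 CPM, it fell by 1.26 in PURPL guide lines (adjusted p = 1.63e-05) and by 1.51 in NTC lines (adjusted p = 7.28e-05). With that library it did not pass, at -0.63 ± 0.32 in PURPL guide lines and -1.47 ± 0.47 in NTC lines.

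The pair KIF21A and KIF21B, both pausing factors of microtubule growth, also differed. KIF21B fell by 0.80 in PURPL guide lines and by 1.09 in NTC lines without the divergent library (edgeR adjusted p = 0.000169 and 0.000178). With that library it was at -0.27 ± 0.28 in PURPL guide lines and -1.06 ± 0.40 in NTC lines, and passed in neither. Its NTC libraries had 0.983, 1.06, 1.06 and 1.04 CPM with Nutlin-3a and 2.64, 2.22, 2.17 and 1.66 CPM with DMSO. KIF21A did not pass with all libraries, at 0.10 ± 0.12 in PURPL guide lines and 0.38 ± 0.17 in NTC lines. It rose without the divergent library, by 0.19 in PURPL guide lines (adjusted p = 0.0291) and by 0.34 in NTC lines (adjusted p = 0.00846), and its NTC libraries with Nutlin-3a, 72.5 to 80.2 CPM, lay above those with DMSO, 44.4 to 69.2 CPM. The Hedgehog and cilium kinesins KIF7, KIF27 and KIF9 did not pass in either kind of line.

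Known partners of these motors were counted in the same fits. Of 18 genes that work with mitotic kinesins, 16 fell and 0 rose in PURPL guide lines and 8 fell and 0 rose in NTC lines, with all libraries (background 16.5% and 4.03% fell). With the divergent library left out, 18 fell in PURPL guide lines and 16 in NTC lines (background 22.7% and 15.9%). RACGAP1, which forms centralspindlin with KIF23, fell by 0.80 in PURPL guide lines (edgeR adjusted p = 5.42e-06) and by 0.56 in NTC lines (adjusted p = 0.00768). PRC1, which recruits KIF4A to the midzone, fell by 0.57 in PURPL guide lines and by 0.41 in NTC lines (adjusted p = 1.12e-06 and 0.00195). TPX2, which tethers KIF11 and KIF15 to the spindle, fell by 0.52 in PURPL guide lines (adjusted p = 4.28e-05) and was at -0.26 ± 0.10 in NTC lines (adjusted p = 0.123). CENPE, a kinetochore kinesin outside the naming rule, fell by 1.02 in PURPL guide lines (adjusted p = 0.000151) and was at -0.47 ± 0.21 in NTC lines (adjusted p = 0.235). When the divergent library was left out, all 4 fell in both kinds of line, in PURPL guide lines RACGAP1 by 0.74, PRC1 by 0.56, TPX2 by 0.47 and CENPE by 0.89. In NTC lines RACGAP1 then fell by 0.60, PRC1 by 0.45, TPX2 by 0.30 and CENPE by 0.51.

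Of 16 tested genes that work with transport kinesins, 2 rose and 2 fell in PURPL guide lines and 0 passed in NTC lines with all libraries (background 17.7% rose and 16.5% fell in PURPL guide lines). When the divergent library was left out, 4 rose and 3 fell in PURPL guide lines, and 3 rose and 2 fell in NTC lines (background 15.9% rose and 22.7% fell, and 8.88% rose and 15.9% fell). KLC1, a light chain of KIF5B, was at -0.10 ± 0.05 in PURPL guide lines and 0.07 ± 0.08 in NTC lines, and without the divergent library it fell by 0.13 in PURPL guide lines (edgeR adjusted p = 0.0263). KIF1BP, which holds kinesins in an inactive state, fell by 0.40 in PURPL guide lines (edgeR adjusted p = 0.00373), and without the divergent library by 0.33 in PURPL guide lines and by 0.25 in NTC lines. KIFAP3, the non-motor subunit bound by KIF3A, was at 0.14 ± 0.11 in PURPL guide lines and 0.37 ± 0.15 in NTC lines with all libraries. It rose without the divergent library by 0.23 in PURPL guide lines (adjusted p = 0.00338) and by 0.34 in NTC lines (adjusted p = 0.00252). Of 17 genes of dynein, dynactin and their regulators, 3 rose and 5 fell in PURPL guide lines, and 0 rose and 1 fell in NTC lines, with all libraries, beside the same background shares (4.18% rose and 4.03% fell in NTC lines). When the divergent library was left out, 1 rose and 7 fell in PURPL guide lines, and 0 rose and 4 fell in NTC lines.

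**Figure D5:**
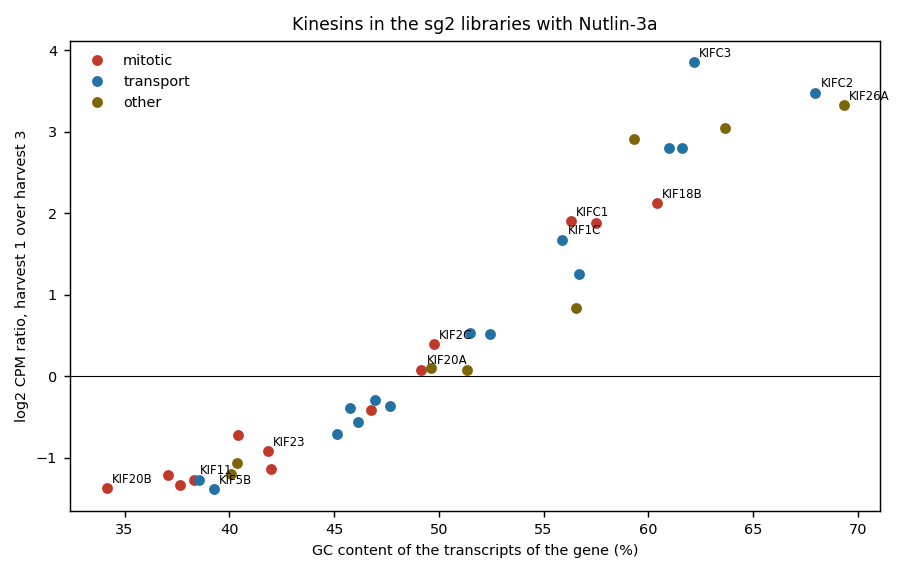
Log2 ratio of CPM in the divergent library of line sg2 over the other sg2 library, both with Nutlin-3a, against the GC content of the transcripts of each of the 36 tested kinesins, coloured by class. The ratio runs from -1.38 (KIF5B, 39.3% GC) to 3.86 (KIFC3, 62.2% GC).

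The comparison of guides asks whether repressing PURPL changed kinesin levels. With DMSO, 0 of 37 tested kinesins passed between the 4 PURPL guide lines and the 2 NTC lines (0.00601% of all genes did), and 0 had an unadjusted p under 0.05 (edgeR on the sums of harvests, background 3.17%). Mitotic members had a median log2 fold change of 0.11 and transport members one of 0.04. KIF21B had the smallest p, at -0.37 ± 0.17 (edgeR adjusted p = 0.825). With NTC1 as the only control, when NTC2 was left out, 25 kinesins passed beside 36.8% of all genes (6324 of 17167), and with NTC2 as the only control 0 did, beside 0.0469%. At an unadjusted p under 0.05 the counts were 27 with NTC1 alone, beside 45% of all genes, and 1 with NTC2 alone, beside 8.31%. In such fits the lone line is assumed to vary like the others.

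With Nutlin-3a, 0 of 36 tested kinesins passed between PURPL guide lines and NTC lines (0% of all genes), and 0 had an unadjusted p under 0.05 (1.69% of all genes). KIF23 was at -0.26 ± 0.12 and KIF11 at -0.27 ± 0.17 (edgeR adjusted p = 0.676 for both). DESeq2 also called 0 kinesins in both guide comparisons. The difference of the responses, PURPL guide lines minus NTC lines, passed for 0 of 37 kinesins (0% of all genes), while 4 had an unadjusted p under 0.05, beside 3.6% of all genes. These were KIF23 (-0.40 ± 0.15), KIF14 (-0.58 ± 0.23), KIF2A (-0.44 ± 0.18) and the transport member KIF3A (-0.46 ± 0.18), each with an edgeR adjusted p of 0.533. KIF2C was at -0.02 ± 0.09. For the difference DESeq2 called 0 (0.0116% of all genes), with 10 at an unadjusted p under 0.05, beside 4.47% of all genes. Without the divergent library edgeR called 0 kinesins in either comparison (0.00596% of all genes between guides with Nutlin-3a, 0% for the difference). Between guides with Nutlin-3a 4 kinesins then had an unadjusted p under 0.05, beside 4.77% of all genes, and these were KIF11, KIF14, KIF23 and KIF3A. For the difference of responses 9 did, beside 5.81% of all genes, and these were KIF11, KIF14, KIF15, KIF18A, KIF23, KIF2A, KIF24, KIF3A and KIFC3. KIF14 was then at -0.20 ± 0.05 between guides with Nutlin-3a and at -0.41 ± 0.14 for the difference (edgeR adjusted p = 0.828 and 0.613). KIF23 was at -0.16 ± 0.06 between guides with Nutlin-3a (adjusted p = 0.828), and the difference of its responses was -0.27 ± 0.10 (adjusted p = 0.613). The larger drops of KIF11 and KIF23 in the PURPL guide lines are therefore not shown to differ from those in NTC lines.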

How the data were processed

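Per the labels' protocols, RNA was isolated with RNeasy Plus and made into TruSeq Stranded mRNA libraries. RSEM produced the deposited estimated counts, of which 5.6 to 7.16% in each library are not whole numbers. The submitters' processing notes name cutadapt, STAR, RSEM, DESeq2 and hg38. The tool versions and the strand setting of the counting are not stated there, so antisense, overlapping and near-identical genes are uncertain. The series' long-read and HepG2 data were not analysed here.

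Copies of 45 genes on the Y pseudoautosomal regions were added to their X copies (0.0222% of counts). Counts were rounded and tested with edgeR 4.0.16 in R 4.3.3 (TMM scaling, filterByExpr with a minimum count of 10, robust quasi-likelihood fit), with Benjamini-Hochberg adjustment over all genes tested and a threshold of 0.05. Nutlin-3a responses came from 1 model of the means of 12 groups over 24 libraries. All groups in it share 1 estimate of the spread between harvests for each gene. For PURPL guide against NTC lines, both harvests of a line were summed, 4 lines against 2, so that lines were the replicates. Differences of responses came from the same sums with a term for each line. CPM and TPM were computed from the deposited counts, TPM with merged exon lengths of GENCODE. Scripts were tested on simulated data.

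Members named with values are the 10 mitotic, 8 transport and 4 other kinesins with the smallest p in either Nutlin-3a comparison, plus any called between guides (there were 0); KIFC1, KIF18B, KIF22, KIF21A and KIF3C, and the tested members given only as fold changes, were added after their values were seen. The members and lists were chosen with earlier results of these data known. Values of 1 gene of the transport partner list are not reported here. Alternatives were RLE scaling, no filter, a filter at 1 CPM in 2 libraries, DESeq2 1.42.0, a replicate block, line sums, single harvests, removal of the GC trend (lowess, span 0.3), leaving out the divergent library, and leaving out each library or line. The labels do not say how the cultures were kept apart beyond calling them biological replicates, so p-values measure the spread between these libraries, which may be technical. SDs and SEs include that spread, and only the limits for members at 0 counts cover counting error alone.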

Additional observations from a re-analysis of the deposited data

Results flagged for a closer look

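Within each group of 4 or 8 libraries, the highest or lowest CPM of the named kinesins was compared with its neighbour by Dixon's ratio (above 0.829 for 4 libraries, 0.526 for 8). Of 88 such sets 20 held a library far from the others, where chance gives about 1 in 20. The divergent library, harvest 1 of line sg2 with Nutlin-3a, accounted for 15 of the 20. It was far below the other PURPL guide libraries with Nutlin-3a for KIF5B (235.8 CPM), KIF11 (106.0 CPM), KIF23 (86.5 CPM), KIF20B (59.96 CPM) and KIF14 (47.1 CPM). It was also far below them for KIF2A (42.1 CPM), KIF18A (36.4 CPM), KIF15 (34.4 CPM) and KIF3A (19.0 CPM). It was far above them for KIF1C (388.4 CPM), KIFC3 (78.3 CPM), KIF21B (4.32 CPM), KIF17 (2.86 CPM), KIF26A (2.33 CPM) and KIF1A (0.571 CPM). The low genes have 34.1 to 42.0% GC and the high genes 55.9 to 69.3% GC. Whether the GC trend of this library accounts for these values was not tested.

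Harvest 1 of line sg6 with DMSO stood apart for 4 genes, with the lowest KIF2C (161.2 CPM) and the highest KIF18A (179.6 CPM), KIF2A (142.2 CPM) and KIF3A (45.8 CPM) of the 8 libraries. It had the lowest GC slope of all 24 libraries, -0.218 on the log2 scale per 10 points of GC. Harvest 1 of line NTC2 with Nutlin-3a had 52.9 CPM of KIF3A, above the other 3 NTC libraries with Nutlin-3a.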

How the results depend on the processing

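The number of kinesins that fell in PURPL guide lines was 13 with all libraries (16.5% of all genes fell) and 20 with the GC trend removed (21.4%). It was 11 to 20 when single libraries were left out, the 20 without harvest 3 of sg2 with Nutlin-3a, which leaves only the divergent library for that group (32.1%). The number that rose there was 1, and 2 with RLE factors, a 1 CPM filter or no divergent library, 3 with DESeq2 without the divergent library (an alternative chosen after seeing the data), and 4 with DESeq2, with the GC trend removed, or with both that and no divergent library. Without single libraries it was 1 to 8, with 8 without harvest 3 of sg2 with Nutlin-3a (33.1% of all genes rose, against 17.7% with all libraries) and 3 without harvest 1 of sg5 with Nutlin-3a. In NTC lines 7 fell (4.03% of all genes), against 17 without the divergent library (15.9%; also with DESeq2, 12.5%, or with the GC trend removed, 15.3%), 16 with the GC trend removed alone (12.0%) and 2 on line sums (1.7%). Without single NTC libraries 3 to 7 fell, 3 without harvest 3 of NTC2 with DMSO, harvest 1 of NTC2 with Nutlin-3a or harvest 3 of NTC1 with Nutlin-3a, and 4 without harvest 3 of NTC2 with Nutlin-3a. There 0 rose with all libraries, 0 to 0 without single ones, and 2 without the divergent library, with DESeq2 without it, with the GC trend removed and with both. The divergent library enters no mean of the NTC lines, but it does enter the estimate of spread that their tests share. The cause of these moves was not tested.

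Between PURPL guide lines and NTC lines with DMSO 0 kinesins were called, and 0 to 25 without single lines, the 25 without NTC2 (36.8% of all genes). With Nutlin-3a, and for the difference of responses, the count was 0 to 0. With harvest as a replicate block, 1 rose and 12 fell in PURPL guide lines, 0 rose and 7 fell in NTC lines, and 0 were called between guides or for the difference. Equal harvest numbers did not pair the libraries throughout: of 66 pairs of groups 24 had deviations correlated above 0.1. The correlations had a median of 0.0464, a lowest of -0.559 and a highest of 0.483. Without the sg2 group with Nutlin-3a the lowest was -0.277.

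The reversed fold changes were all of genes that edgeR did not call with all libraries in that comparison. DESeq2 did call KIFC3 as higher in PURPL guide lines with all libraries. KIF3A in PURPL guide lines was at 0.026 without the divergent library and 0.059 with DESeq2 without it. It was at 0.14 with the GC trend removed and at 0.14 with both, and passed in these last fits. KIFC3 in PURPL guide lines was at -0.10 with both, and KIF16B in NTC lines at -0.021 without the divergent library. Without single libraries KIF16B ranged from -0.10 to 0.013 and KIF1C from -0.081 to 0.084 in NTC lines, and KIF3A from -0.30 to 0.026 in PURPL guide lines. Of the fold changes called with all libraries, 195 values kept direction and side of the threshold under the other alternatives and 14 lost the call, and 244 did and 36 lost it without single libraries. Depth limits KIF1A, KIF17, KIF26A and KIF26B, with 3 to 250 counts in a library.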
